A study of Mus musculus with 4 samples.

Results

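The response of dendritic cells to LPS was read from a single pair of arrays, the one labelled LPS and the one labelled media. Of the 22690 probe sets on the array, 20380 carried exactly 1 gene symbol, and 13806 of these, not counting array controls, had a signal above 33.3 on at least 1 of the 2 arrays. Those 13806 probe sets are described here by the difference LPS minus media of their log2 signals, with readings at or under 33.3 (the floor) set to 33.3. The floor is the 40th percentile of all signals of the 4 arrays of the series. With 1 probe set kept per gene, 9130 of 12393 named genes were measured in this way, and the other 3263 lay at the floor on both arrays. All 4 samples of the series were CD11c+ dendritic cells whose label reads IL10-/-, that is, cells from mice deficient in interleukin 10. The cells had spent 6 h in plain media, in LPS, in SEA or in SEA/LPS. Each group was 1 sample on 1 array. The labels assign the 4 samples to the same lot and give neither the tissue of origin, nor the doses, nor separate cultures or animals, nor what SEA stands for. No difference below therefore has a replicate or a p-value, and a gene is called higher or lower on the size of its difference, from 2-fold upwards.

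LPS (lipopolysaccharide), from the outer membrane of Gram-negative bacteria, is handed by CD14 to the receptor TLR4 with its partner MD-2. One arm of the signal, through the adaptor MyD88, activates NF-kappaB and AP-1 and with them cytokine and chemokine genes. Another, through the adaptor TRIF, activates IRF3, which induces interferon beta; the secreted interferon then acts back on the cells through its receptor and switches on antiviral genes. In dendritic cells this programme is called maturation: the cells display costimulators, present antigen and move towards lymph nodes. Interleukin 10 is a secreted brake on it, and the cells studied here, those in media included, were labelled as lacking it.

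Markers of dendritic cells were present on both arrays. Of 18 such markers named by a probe set, 17 lay above the floor in media and 18 with LPS, among them Itgax, which encodes CD11c itself (2732 in media and 1851 with LPS), and the class II genes H2-Aa (5629 in media and 6219.7 with LPS) and Cd74 (8639 in media and 11233 with LPS). The T cell receptor genes Cd3d, Cd3e and Cd3g lay under the floor on both arrays, and 5 of 10 T cell markers did, with a summed signal of 1607 in media and 1891 with LPS that came mostly from Il7r. Of 9 B cell markers 6 lay above the floor on either array, none of them above 165, and the 7 NK cell markers summed to 216 and 298. Macrophage markers were well represented, 7 of 10 above the floor in media and 8 with LPS, with Csf1r at 5629.6 in media and 4520.2 with LPS and a summed signal of 8775 and 7199. Of 9 neutrophil markers, Mmp8 was bright (2762 in media and 1534 with LPS) while S100a9 and Camp were under the floor on both arrays, and of 8 erythroid and platelet markers Pf4 was bright too (2920.1 in media and 2019.9 with LPS). Mast cell and basophil markers summed to 228 in media and 501 with LPS, the fibroblast list to 9988 and 14339, nearly all of it Vim, which is not particular to fibroblasts. The part of such cells in the differences below was not tested. The 3' to 5' signal ratio of Gapdh, which climbs as RNA degrades, was 2.21 in media and 2.42 with LPS, and that of Actb 1.20 and 1.24.

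Across the 9130 genes the median difference was -0.08 on the log2 scale with an SD over genes of 0.80, and the 5th and 95th percentiles were -1.23 and 1.13. At 2-fold or more, 574 genes were higher with LPS (6.29% of the genes measured) and 799 lower (8.75%). Counted over the 13806 probe sets, 907 were higher (6.57%) and 1195 lower (8.66%). At any size, 5045 of the 9130 genes lay below 0 and 4074 above it. The shares over genes are the background for every count that follows. The 2 sides differed in shape. More genes were lower, but the large differences were on the higher side: 157 genes were 4-fold or more higher and 71 lower, 62 against 4 at 8-fold, and 26 against 1 at 16-fold, and at 32-fold and 64-fold the higher side held 10 and 5 genes and the lower side 0. For 113 of the 574 higher genes media lay at the floor, and for 169 of the 799 lower genes LPS did, so that their difference is a lower bound, written as at least. Genes were put in 5 groups of equal size by their mean log2 signal over the media and LPS arrays, into which a difference with LPS itself enters. From the dimmest group to the brightest, higher genes numbered 25, 140, 102, 123 and 184, and lower genes 37, 267, 215, 178 and 102. Over the same groups, the SD of SEA minus media over genes went from 0.36 in the dimmest to 0.27 in the brightest, and that of LPS minus media from 0.50 to 0.92. The dimmest group reached a mean signal of only 49.6, against a floor of 33.3. The floor therefore limits how large a difference with LPS can be in that group. Its low counts and small SD follow in part from this limit.

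The split into higher and lower rests on how the arrays are put on one scale. All 4 columns had a 2% trimmed mean of 150.1, so the average difference was fixed near 0 before deposit. Of the called genes, 41.8% were higher. Scaling both arrays to their 75th percentile instead gave 55.4% higher, and scaling them to the hybridisation controls, all 18 of which were brighter with LPS (mean log2 difference 0.55), gave 10.5% and moved the median of all genes to -0.59. List medians below are therefore to be read beside the median of all genes of -0.08. Each of these scalings uses 1 factor per array, and they shifted list medians by 0.14 and -0.55. Such shifts are too small to turn the sign of a 2-fold difference. Of the 385 genes singled out by rule for a difference of 2-fold or more, 0 changed sign under them, an outcome fixed in advance. Under quantile scaling 0 changed sign as well.

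**Figure D1:**
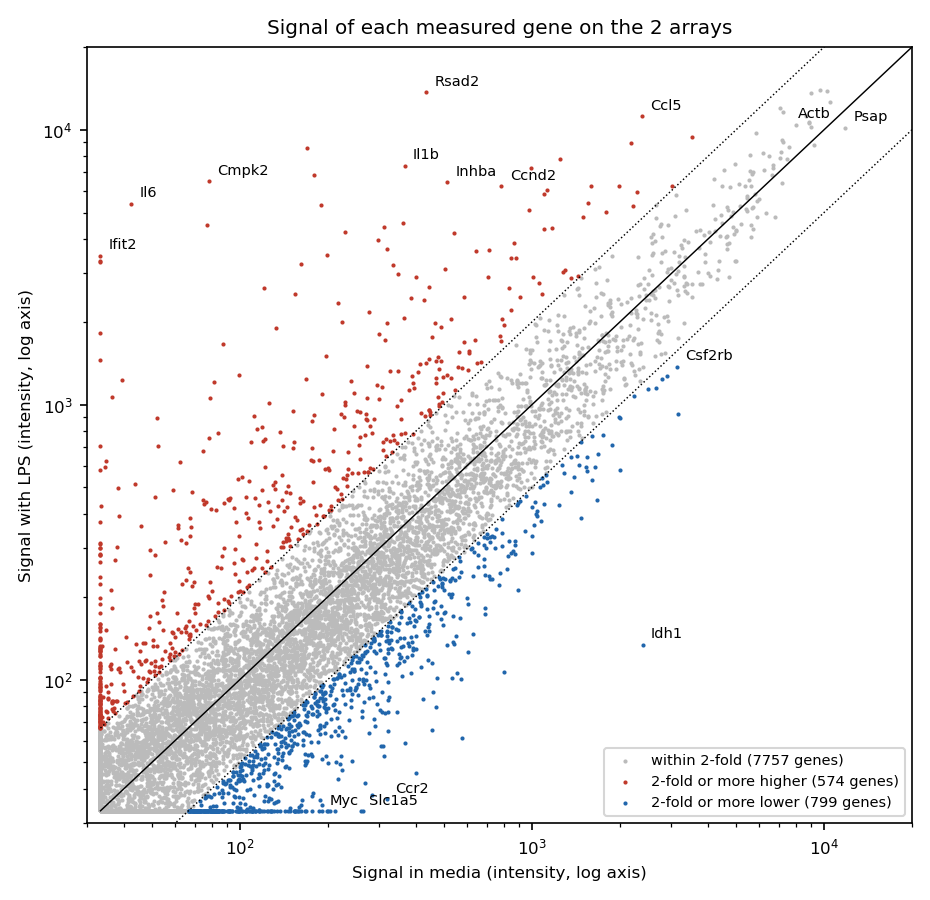
Signal of each of the 9130 measured genes in media (x axis) and with LPS (y axis), both intensities on log axes, with readings under the floor set to 33.3; the solid line marks equal signal and the dotted lines 2-fold. The 574 higher genes (red) reach much farther from the line than the 799 lower genes (blue), of which Idh1 lies farthest.

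The largest difference of any gene above the floor on both arrays was that of a cytokine. Il6, an inflammatory cytokine that drives the acute phase response, read 42.3 in media, 5389 with LPS, 139.5 with SEA and 2969.5 with SEA/LPS, which makes it 127-fold higher with LPS than in media. Both arrays with LPS lay far above both without it. Il12b, which encodes p40, a chain common to IL-12 and IL-23, read 30.8 in media, 1827 with LPS, 34.7 with SEA and 271 with SEA/LPS, at least 54.9-fold higher. Its 2 partner subunits were also higher: Il12a read 36.2 in media, 114 with LPS, 35.6 with SEA and 53.8 with SEA/LPS, and Il23a 5 in media, 236 with LPS, 5.4 with SEA and 33.6 with SEA/LPS, so that with SEA/LPS Il23a barely passed the floor. Ebi3, which forms IL-27 and IL-35, was 3.39-fold higher with LPS (415 in media, 1407 with LPS, 435 with SEA and 417 with SEA/LPS) and did not separate the other 2 arrays. In all, 5 of 13 measured genes of the IL-6 and IL-12 families were higher, and 1, the shared receptor Il6st, was lower (-1.28).

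Of 12 measured genes of the IL-1 family 7 were higher with LPS and 0 lower, with a median of 1.45. Both agonists were among them, Il1b with 367 in media, 7412 with LPS, 1016 with SEA and 5953 with SEA/LPS and Il1a with 155 in media, 2532 with LPS, 164 with SEA and 2256 with SEA/LPS. So was their natural antagonist Il1rn, which blocks the IL-1 receptor (334 in media and 3227 with LPS, a difference of 3.27), as well as Il33 (at least 3.01), Il1f6, which encodes IL-36 alpha (1.94), and Il18 (1.47). Il1b was already higher with SEA alone than in media, by a log2 difference of 1.47, and LPS added 2.55 on top of SEA. The common gamma chain and IL-10 families had 6 of 14 members higher and 0 lower (median 0.70). Il15, which sustains NK and memory T cells, and Il15ra, the receptor chain that presents it, differed alike, Il15 with 34.8 in media, 622 with LPS, 68.6 with SEA and 601 with SEA/LPS and Il15ra with 32.7 in media, 577 with LPS, 16.4 with SEA and 514 with SEA/LPS. Both had low readings on the media and SEA arrays and high readings on both arrays with LPS. The Il10 probe set itself read 37.9 in media, 304 with LPS, 52.1 with SEA and 93 with SEA/LPS. Its place relative to the deleted or changed sequence is not known here, and the reading checks nothing about the genotype.

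Of 9 measured TNF superfamily ligands 4 were higher: Tnf (43.6 in media, 514 with LPS, 81.3 with SEA and 555 with SEA/LPS), the T cell costimulator Tnfsf4, or OX40 ligand (2.14), Cd70 (1.54) and Fasl (at least 1.15). Among 11 TNF receptors Cd40, through which helper T cells license dendritic cells, stood out with 39.5 in media, 1224 with LPS, 46.1 with SEA and 788 with SEA/LPS, and Tnfrsf1b was also higher (1.13). Colony-stimulating factors and their receptors showed less, with 1 of 9 higher, Csf1 (1.47), and 1 lower, the receptor chain Csf2rb. Csf2rb read 3139 in media, 1376 with LPS, 2686 with SEA and 2741 with SEA/LPS, so that the LPS array stood alone.

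Chemokines that recruit neutrophils and those that recruit activated T cells were both higher. Among 13 measured CXC chemokines 7 were higher and 1 lower (median 1.25). The neutrophil attractants were Cxcl1 (77.2 in media, 4491 with LPS, 187 with SEA and 2121 with SEA/LPS), Cxcl2 (1247 in media and 7826 with LPS) and Cxcl5 (at least 1.72). The 3 ligands of CXCR3, a receptor of activated T cells, were Cxcl10 (179 in media, 6830.2 with LPS, 182 with SEA and 6366 with SEA/LPS), Cxcl11 (26.1 in media and 302 with LPS) and Cxcl9 (8.7 in media and 159 with LPS), the last 2 under the floor in media. Among 12 CC chemokines 6 were higher and 0 lower (median 1.01): Ccl3 (3.66), Ccl4 (2.98), Ccl2 (2.34), Ccl5 (2.24), Ccl22 (1.65) and Ccl8 (1.08). Of 15 chemokine and chemoattractant receptors 3 were higher and 2 lower. Ccr7, which guides mature dendritic cells to lymph nodes, was higher (296 in media, 1175 with LPS, 238 with SEA and 708 with SEA/LPS), while Ccr2, which guides monocytes and their descendants to inflamed tissue, was among the lowest genes of all (319 in media, 36.7 with LPS, 277 with SEA and 81.3 with SEA/LPS). For Ccr2 both arrays with LPS lay below both without it. The other 3 were Ccrl2 (2.34) and the formyl peptide receptor Fpr2 (1.57), both higher, and the complement receptor C3ar1, lower (-1.18).

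**Figure D2:**
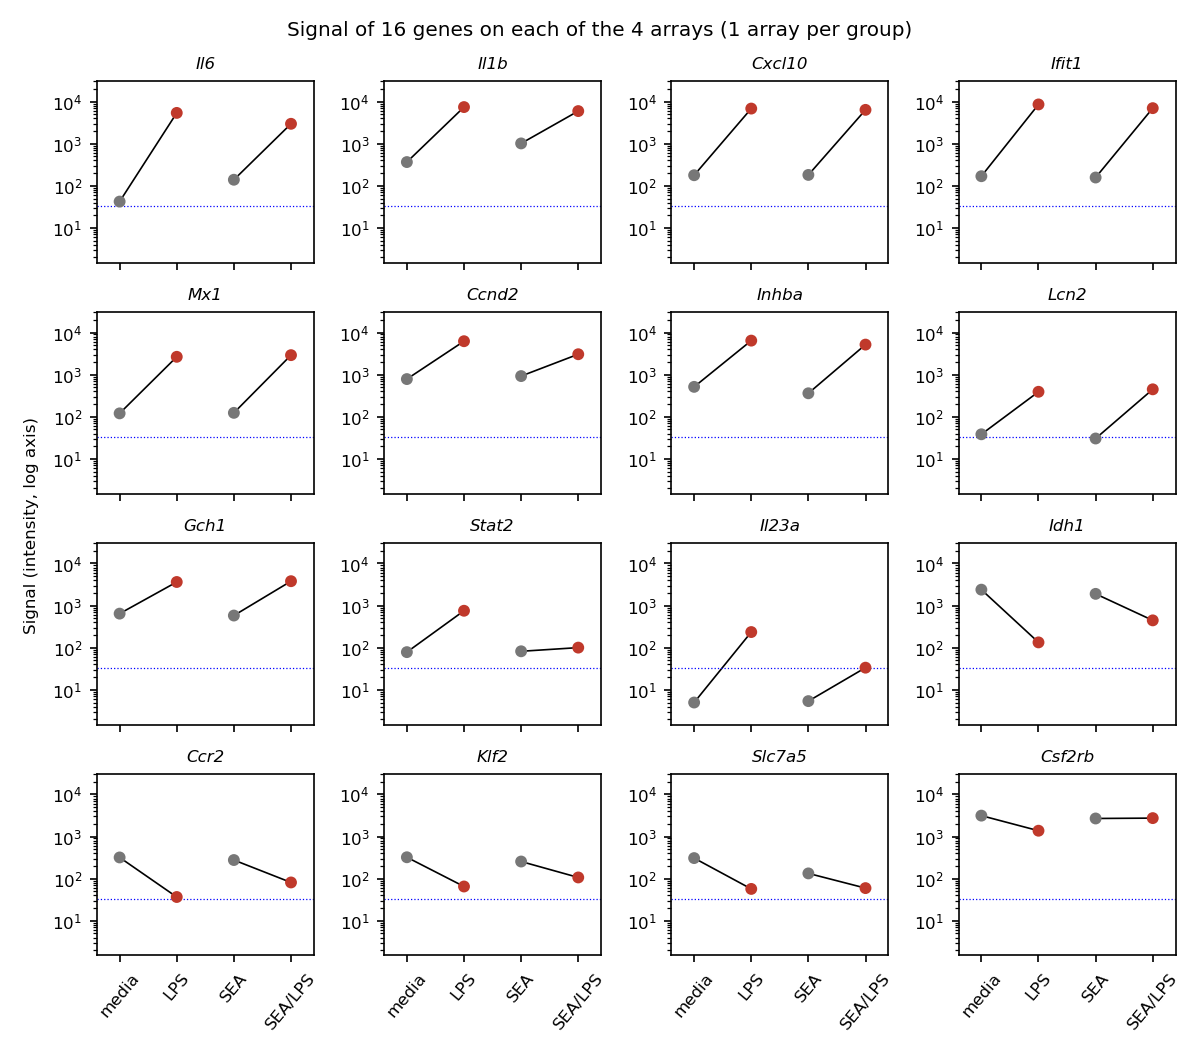
Signal of 16 genes described in the text on the media, LPS, SEA and SEA/LPS arrays (1 array per group, log axis; the dotted line is the floor of 33.3; red points are the arrays with LPS and lines join the arrays that differ by LPS). In Il6, Cxcl10, Ifit1, Mx1 and Inhba both lines climb, in Idh1, Ccr2, Klf2 and Slc7a5 both descend, and in Stat2, Il23a and Csf2rb the line of the SEA pair is flatter or flat.

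Members of the NF-kappaB system itself differed in parts. Of 13 measured subunits, inhibitors and kinases 6 were higher and 1 lower (median 0.78). Nfkbiz, an inducible nuclear cofactor needed for Il6 and other secondary genes, was highest (51.9 in media, 898 with LPS, 93.4 with SEA and 652 with SEA/LPS), followed by the subunit Rel (74.8 in media and 449 with LPS), the inhibitor Nfkbib (529 in media and 2045 with LPS) and the subunit Nfkb2. Nfkb2 read 469 in media, 1444 with LPS, 416 with SEA and 466 with SEA/LPS and so stood apart on the LPS array. The kinase subunit Ikbkg was lower (-1.27). The list named ubiquitin regulators of NF-kappaB had 4 of 18 members higher and 0 lower. They were Zc3h12a, a nuclease that cuts Il6 mRNA (at least 3.09), Tnfaip3 (2.29), Traf1 (1.95) and Tnfaip2 (1.25). Not every member of the list acts on ubiquitin or inhibits the pathway. Among 15 feedback regulators of cytokine signalling Socs3 (539 in media, 4196 with LPS, 976 with SEA and 3159.8 with SEA/LPS) and Socs1 (326 in media and 737 with LPS) were higher. Ptpn6, the third, was 1.02 higher on the probe set used, but its other probe set gave the opposite direction.

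The promoters of the 2 chemokine and cytokine genes farthest above media carry letters of the NF-kappaB motif close to the start. They are shown for the place of these letters, and were picked for it after the matches were seen, out of 6 promoters examined by rule that also included those of Cmpk2, Ifit2, Oasl1 and U90926. The sequences are the 250 bases before the RefSeq start site in assembly GRCm38.p6, 5′ to 3′ on the strand of the gene, at chr5:30012864-30013113 (plus strand) for Il6 and chr5:90890995-90891244 (plus strand) for Cxcl1, and capitals mark matches on either strand to GGG and TTCC with any 3 bases (NNN) between.
Il6: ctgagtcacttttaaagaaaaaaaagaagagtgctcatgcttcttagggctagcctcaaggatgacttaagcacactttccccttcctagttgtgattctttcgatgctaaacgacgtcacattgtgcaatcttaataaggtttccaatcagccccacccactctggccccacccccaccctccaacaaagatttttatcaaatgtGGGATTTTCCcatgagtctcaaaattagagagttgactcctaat
Cxcl1: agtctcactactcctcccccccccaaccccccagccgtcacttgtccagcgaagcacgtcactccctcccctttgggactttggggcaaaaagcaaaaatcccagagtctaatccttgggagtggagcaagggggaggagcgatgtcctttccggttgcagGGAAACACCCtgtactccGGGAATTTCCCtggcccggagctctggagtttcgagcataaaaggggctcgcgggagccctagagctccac
In Il6 the match began 44 bases before the start site. In Cxcl1 the matches began 89, 71 and 70 bases before it, and the last 2 overlap on opposite strands.

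Some genes of the interferon arm, from its ligand and signalling proteins to its targets, were higher with LPS, the targets most. Whether secreted interferon raised them was not tested. Ifnb1, interferon beta, was 3.46-fold higher with LPS (37.3 in media, 129 with LPS, 29.8 with SEA and 51.4 with SEA/LPS). Among 10 measured interferon ligands, receptors and Janus kinases the kinase Jak2 was the other higher gene (1.53), and 0 were lower. Of 8 interferon regulatory factors 2 were higher, Irf7, which amplifies interferon production (78.8 in media, 1058 with LPS, 138 with SEA and 803 with SEA/LPS), and Irf8, a factor of dendritic cell identity (489.6 in media, 1911 with LPS, 531 with SEA and 955 with SEA/LPS). Of 5 STAT factors 3 were higher and 0 lower, Stat2 (3.26), Stat5a (2.30) and Stat3 (1.34). Stat2 read 78.6 in media, 755 with LPS, 82.3 with SEA and 101 with SEA/LPS, so its level with SEA/LPS was close to that of the arrays without LPS.

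The interferon-inducible GTPases, which attack the vacuoles of intracellular pathogens or block viruses, were higher without exception. All 11 measured members, out of 17 symbols in the list, were higher with LPS, with a median of 2.81, and all 11 were also higher in SEA/LPS over SEA (median 2.84). Mx1 read 120.5 in media, 2653 with LPS, 124 with SEA and 2906 with SEA/LPS, Gbp6 16.3 in media, 705 with LPS, 42.9 with SEA and 857 with SEA/LPS and Ifi47 198 in media, 3496 with LPS, 193 with SEA and 3459.5 with SEA/LPS. In each of these the 2 arrays with LPS stood close together and far above the other 2. The others were Iigp1 (3.75), Irgm1 (2.89), Irgm2 (2.81), Igtp (2.51), Gbp3 (2.45), Mx2 (at least 2.09), Gbp2 (1.95) and Gbp7 (1.49), the smallest of the 11.

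Promoter windows were listed for 7 of these GTPase genes, and 6 of the 7 held GAAA and GAAA with any 2 bases between, the core of the interferon-stimulated response element (ISRE), on one strand or the other; Ifi47 did not. The share over all 7426 measured genes with a window of 300 bases was 3.30%. The promoters of 4 of the 6 are shown in the same layout as above, also picked after the matches were seen, at chr11:48871421-48871670 (minus strand) for Irgm1, chr11:58214727-58214976 (plus strand) for Irgm2, chr11:58199306-58199555 (plus strand) for Igtp and chr3:142559794-142560043 (plus strand) for Gbp3, and capitals mark those letters on either strand.
Irgm1: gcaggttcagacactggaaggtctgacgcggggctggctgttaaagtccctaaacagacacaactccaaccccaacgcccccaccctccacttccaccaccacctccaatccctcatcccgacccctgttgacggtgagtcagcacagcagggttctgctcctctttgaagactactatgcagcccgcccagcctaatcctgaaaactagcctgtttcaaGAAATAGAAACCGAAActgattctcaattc
Irgm2: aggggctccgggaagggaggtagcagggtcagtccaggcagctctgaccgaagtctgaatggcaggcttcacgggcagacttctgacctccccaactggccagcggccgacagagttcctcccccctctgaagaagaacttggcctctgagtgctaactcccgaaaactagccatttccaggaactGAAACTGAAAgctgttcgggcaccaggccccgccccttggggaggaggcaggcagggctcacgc
Igtp: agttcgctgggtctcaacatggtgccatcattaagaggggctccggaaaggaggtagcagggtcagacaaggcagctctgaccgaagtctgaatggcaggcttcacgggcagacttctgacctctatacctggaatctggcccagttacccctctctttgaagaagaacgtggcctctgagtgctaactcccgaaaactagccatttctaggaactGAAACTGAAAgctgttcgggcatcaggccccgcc
Gbp3: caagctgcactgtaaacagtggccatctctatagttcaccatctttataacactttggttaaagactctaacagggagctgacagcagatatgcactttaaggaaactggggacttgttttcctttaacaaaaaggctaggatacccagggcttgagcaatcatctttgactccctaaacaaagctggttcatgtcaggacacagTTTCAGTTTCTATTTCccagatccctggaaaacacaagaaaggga
The matches began between 64 and 24 bases before the start site. Irgm2 and Igtp, which are neighbouring paralogs, share the same 10 letters and much of the sequence around them, so they are not separate examples.

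Direct antiviral effectors followed the GTPases, with 20 of 27 measured genes higher, 0 lower and a median of 2.39. Ifit2, whose product binds foreign RNA, read 19.5 in media, 3487 with LPS, 29.6 with SEA and 3138 with SEA/LPS and was at least 105-fold higher. Cmpk2, a nucleotide kinase, read 78.1 in media, 6486 with LPS, 85.6 with SEA and 3428 with SEA/LPS, and its chromosomal neighbour Rsad2, which makes a chain-terminating nucleotide, read 434 in media, 13688 with LPS, 473 with SEA and 10251 with SEA/LPS. Oasl1, an antiviral protein that in mice restrains Irf7 translation, read 20.1 in media, 3336 with LPS, 162 with SEA and 2868 with SEA/LPS. The remaining members among the 6 largest were Ifit1 (5.66) and Ifit3 (4.87). ISRE letters stood in 11 of 24 windows of this list (45.8%). The windows of Cmpk2, Oasl1 and the long noncoding gene U90926 (at least 6.63) held neither the ISRE nor the NF-kappaB letters searched, and that of Ifit2 held NF-kappaB letters only.

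Several sensors of viral RNA and DNA were higher and 2 adaptors behind such sensors were lower. The RNA helicases Ifih1 (189.7 in media and 5346 with LPS), which is MDA5, and Dhx58 (7.9 in media and 311 with LPS), which is LGP2, the DNA-binding Ifi204 (at least 3.10), Ddx60 (at least 2.50) and Zbp1 (2.31) were the 5 higher of 11 measured nucleic acid sensors. Sting1, the adaptor of cytosolic DNA sensing, was lower, with 168 in media, 7.4 with LPS, 113 with SEA and 62 with SEA/LPS, at least 5.06-fold. With SEA/LPS it lay above the floor, and the difference over SEA was -0.87. Mavs, the adaptor of RNA sensing, was the other lower gene (108 in media and 53.1 with LPS).

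Other interferon-linked families were higher in part. All 5 measured genes of the list named ISG15 pathway were higher (median 2.14). The list as kept is wider than ISG15 conjugation, since it also holds the nuclease Isg20 (3.32) and the protease Usp25 (2.14). The deconjugating protease Usp18 was highest (161 in media, 3256 with LPS, 146 with SEA and 3066 with SEA/LPS). The activating enzyme Uba7 (2.05) and the conjugating enzyme Ube2l6 (at least 1.14) were also higher. Of 4 Schlafen genes 3 were higher: Slfn8 (3.89), Slfn4 (at least 3.24) and Slfn1 (1.81). Of 10 ADP-ribosyltransferases 5 were higher, with Parp12 (3.44), Parp14 (2.60) and Parp8 (at least 2.20) ahead of Parp9 (1.72) and Tiparp (1.43), while Parp1, which acts in DNA repair, was lower (-1.21). Of 22 TRIM proteins 5 were higher, among them Trim30a (2.67) and Trim21 (2.62), and 1 was lower, Trim44 (-1.53).

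Several of the higher genes sit next to each other in the genome. Among 9118 genes that could be placed in order, 27 higher genes fell in 9 runs of 3 neighbouring measured genes, and 22 lower genes in 7 runs of which the longest held 4. The runs of higher genes included Ifit2, Ifit3 and Ifit1 on chromosome 19 (differences from 4.87 to 6.71), Cxcl9, Cxcl10 and Cxcl11 on chromosome 5 (2.26 to 5.26), Ifi209, Ifi204 and Mndal on chromosome 1 (3.10 to 4.20), and Irgm1, Gm12185 and Ifi47 on chromosome 11 (1.11 to 4.14). The torsin-related genes Tor1aip1, Tor1aip2 and Tor3a on chromosome 1 (2.06 to 2.34) and the protease inhibitors Serpinb6b, Serpinb9 and Serpinb9b on chromosome 13 (1.42 to 2.31) formed 2 more. Neighbouring paralogs can share probe sequence, so such runs are not fully separate measurements. The remaining runs were Fbxo36, C130026I21Rik and Sp110 on chromosome 1, Asf1a, Man1a and Msl3l2 on chromosome 10, and Acvr1, Pkp4 and Tanc1 on chromosome 2. How many runs a random order of genes would give was not tested, for higher or for lower genes. The longest run of lower genes was Cebpzos, Prkd3, Qpct and Cdc42ep3 on chromosome 17 (-1.03 to -1.27).

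Promoter letters were also counted over the whole set of genes, on both strands of windows from 250 bases before to 50 bases after the start site, the first window listed where a gene had several. The NF-kappaB letters stood in 6.25% of the 7426 measured genes with a window, in 8.91% of 449 genes 2-fold or more higher and in 6.57% of 654 lower. For the ISRE letters the shares were 3.30%, 10.02% and 1.83%, for the AP-1 letters TGANTCA 5.78%, 10.02% and 4.74%, and for the TATA box letters TATAAA 8.30%, 12.9% and 6.42%. At 4-fold or more, the NF-kappaB letters stood in 14.7% of 116 higher and 3.85% of 52 lower genes, the ISRE letters in 20.7% and 0%, the AP-1 letters in 21.6% and 1.92%, and the TATA box letters in 24.1% and 5.77%. Over all 32851 windows in the table these letters stood in 5.56%, 3.44%, 7.81% and 13.6%, in the same order. The median ratio of observed to expected CpG was 0.75 over all measured genes, 0.69 in those 2-fold or more higher, 0.40 in those 4-fold or more higher and 0.77 in those 2-fold or more lower, and 18.9%, 31.0%, 52.6% and 14.5% of them lay under a ratio of 0.4. Base composition alone moves such shares of letters, and a match is not a bound site.

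**Figure D3:**
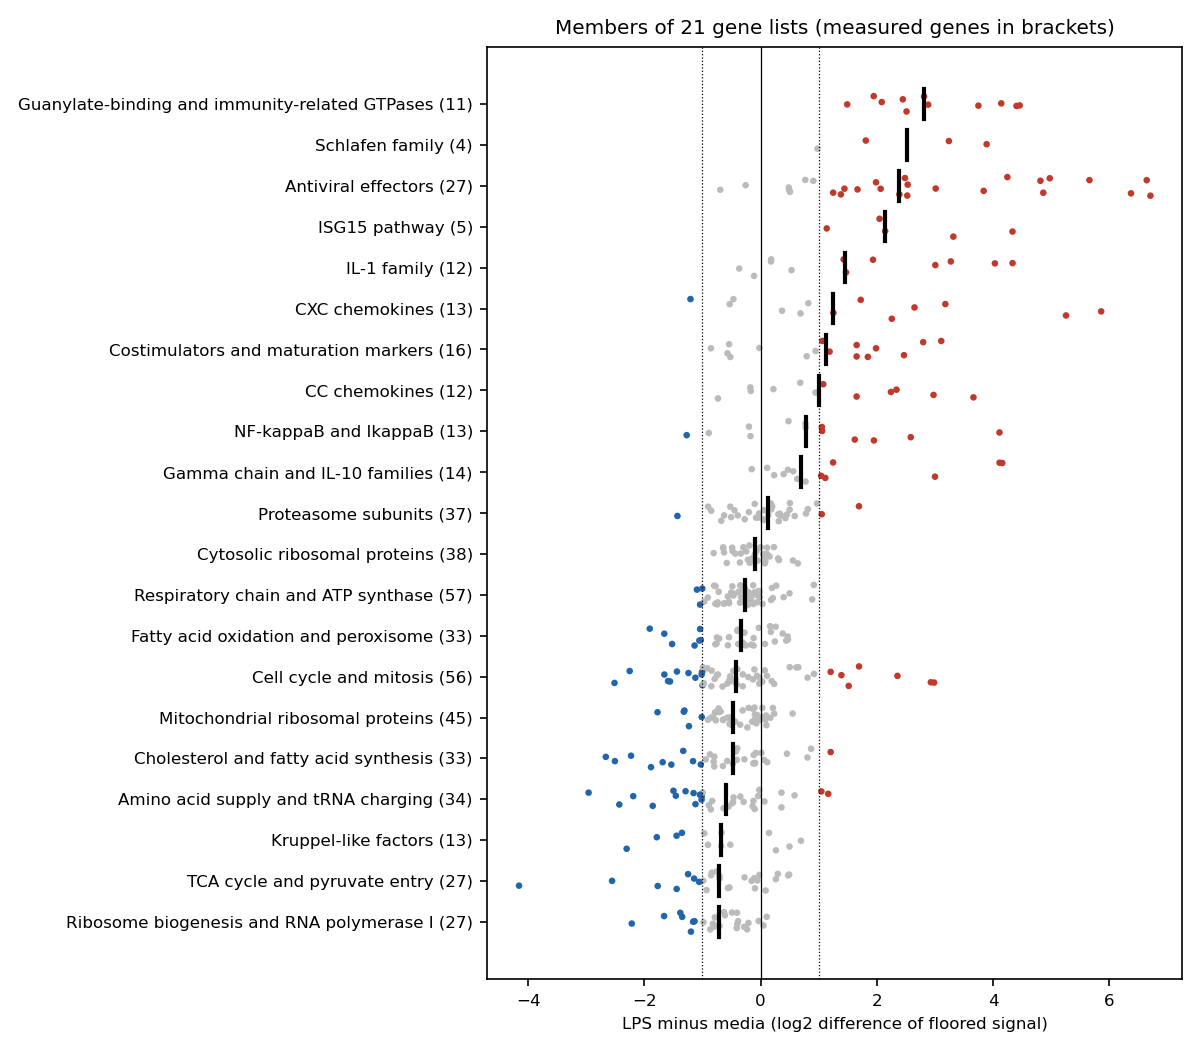
Difference LPS minus media (log2 of floored signal, x axis) of each measured gene in 21 gene lists, with the number measured in brackets; red points are 2-fold or more higher, blue 2-fold or more lower, the black bar is the median and the dotted lines mark 2-fold. The interferon, IL-1 and chemokine lists lie to the right, the cytosolic ribosomal proteins near 0, and most genes of the biosynthetic and mitochondrial lists left of 0.

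Receptors that catch and recognise microbes differed in both directions. Of 12 measured Toll-like receptors and LPS co-receptors 3 were higher: Cd14 (1559 in media, 5401 with LPS, 3112 with SEA and 4499.5 with SEA/LPS), the RNA receptor Tlr3 (2.6 in media, 129 with LPS, 2.9 with SEA and 184 with SEA/LPS) and Tlr7 (1.32). Tlr3 was under the floor on both arrays without LPS. Among the adaptors and kinases behind these receptors Peli1, an E3 ligase, was highest (74.8 in media, 679 with LPS, 77.3 with SEA and 558 with SEA/LPS), Tab2 (1.08) and Ikbke (1.06) were higher, and Tab1 (-1.20) and Ripk3 (-1.52) lower, of 16 measured.

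Several receptors for uptake were lower with LPS than in media. In SEA/LPS over SEA, 0 of 14 lectins, 1 of 22 Fc receptor and ITAM genes and 0 of 16 scavenger receptors were lower. Their medians there were -0.03, -0.12 and -0.02. The C-type lectins Clec4a2 (1238 in media and 433 with LPS), Mrc1 (246 in media and 109 with LPS), the mannose receptor, and Mgl2 (731 in media and 333 with LPS) were the 3 lower of 14 lectins, against the higher Clec4e (2295 in media and 5928 with LPS), a receptor for mycobacterial glycolipid, and Ly75 (at least 1.35). Of 22 Fc receptors and ITAM signalling genes 4 were lower, Cd300a (-2.07), Cd300lf (-1.33), Fcgr3 (-1.06) and Btk (380.1 in media and 189.9 with LPS), 1 was higher, Trem1 (1.06), and only 5 of the 22 lay above 0 (median -0.47). Scavenger receptors split, with Marco (1.68) and Olr1 (1.36) higher and Stab1 (at least -1.54 in size), Scarb1 (-1.22) and Cd36 (-1.21) lower, as was the sterol exporter Abcg1 (-1.18). Complement did likewise: factor B, Cfb, was higher (51 in media, 462 with LPS, 74.3 with SEA and 537 with SEA/LPS), while C1qa (874 in media, 318 with LPS, 602 with SEA and 385 with SEA/LPS) and C1qb (-1.17) and the receptor chains Itgam (-1.11) and C3ar1 (-1.18) were lower. C1qa is also a macrophage marker, and in bulk samples such as these fewer cells of a type and less RNA per cell cannot be told apart.

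Maturation genes were higher in 9 of 16 cases and lower in 0 (median 1.13). The actin bundler Fscn1, typical of mature dendritic cells, read 347 in media, 2993 with LPS, 276 with SEA and 2010 with SEA/LPS, the costimulator Cd86 175 in media, 629.7 with LPS, 193 with SEA and 603 with SEA/LPS, and Cd274, the inhibitory ligand PD-L1, 1102 in media, 4371 with LPS, 1291 with SEA and 4380.2 with SEA/LPS. Slamf7 (2.80), Cd200 (2.47) and Cd83 (1.65) were also higher. In all 3 genes with their values spelled out, both arrays with LPS lay above both without. Genes for peptide loading onto class I molecules were higher too: Tap1 (2.59), Tapbp (2.15), Tapbpl (1.69) and Tap2 (1.19) were the 4 higher of 12 genes. Of 37 proteasome subunits 2 were higher, the immunoproteasome subunit Psmb10 (1.69) and Psma5 (1.05), and Psmc1 was lower (-1.43). Among 13 class II genes Rfx5, a factor that drives them, was higher (1.13) and H2-DMa, which loads peptide, lower (1358 in media, 482 with LPS, 1111 with SEA and 769.8 with SEA/LPS), while the median was 0.14.

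The machinery of shape and adhesion held single large differences. Marcksl1 (995 in media, 7234 with LPS, 748 with SEA and 5852 with SEA/LPS) and Plek (1.69) were higher, Eps8 (-2.68), Myo1f (-1.94) and Dock2 (-1.71) lower, of 62 cytoskeletal genes with 3 higher and 7 lower. Among 23 integrins and adhesion genes Itgav (1.95), Alcam (1.73), Vcam1 (at least 1.60) and Cd47 (1.25) were higher, and Itga6 (-1.71), Itgam (-1.11) and Itgb5 (-1.10) lower. The tetraspanins Cd37 (-2.23) and Tspan14 (-2.11) were lower, of 14.

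Enzymes that make inflammatory mediators were among the higher genes. Nos2, the inducible nitric oxide synthase, read 2.9 in media, 283 with LPS, 2.6 with SEA and 55.7 with SEA/LPS, and was at least 8.50-fold higher with LPS. With SEA/LPS it lay only a little above the floor. Its cofactor enzyme Gch1 (645 in media, 3636 with LPS, 581 with SEA and 3799.8 with SEA/LPS) and the arginine transporter Slc7a2 (402 in media and 2907 with LPS) were higher, as was Acod1, which makes itaconate (2184 in media, 8951 with LPS, 2562 with SEA and 7621 with SEA/LPS). Srm, the polyamine enzyme spermidine synthase, was the lower gene of these 17 (692 in media and 173 with LPS). Ptgs2, cyclooxygenase 2, read 4.1 in media, 1459 with LPS, 16.7 with SEA and 546 with SEA/LPS. It was the only higher gene of 21 in the eicosanoid list, in which 5 were lower: the phospholipase Pla2g15 (-2.18), the thromboxane synthase Tbxas1 (-1.61), and the receptors Cysltr1 (-1.51), Ptgir (-1.17) and Ltb4r1 (-1.14). The list as kept also holds Ptpn22, a tyrosine phosphatase with no part in eicosanoid synthesis, which was within 2-fold. Hdc, the histamine-forming enzyme, read 1.3 in media, 129.6 with LPS, 3.9 with SEA and 69.9 with SEA/LPS, and Ch25h, which makes the antiviral oxysterol 25-hydroxycholesterol, 38.1 in media, 499 with LPS, 52.5 with SEA and 421 with SEA/LPS.

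Some genes of iron withholding, protease inhibition and cell death were higher as well. Lcn2, which captures bacterial siderophores, read 38.4 in media, 392.1 with LPS, 30.5 with SEA and 449 with SEA/LPS, and Hamp, which encodes hepcidin, 88 in media, 439 with LPS, 63.5 with SEA and 235 with SEA/LPS. The transferrin receptor Tfrc (-1.42) and Aco1, the iron-regulatory protein 1 (-1.14), were the 2 lower of 20 iron and metal genes, 5 of which were higher. Mitochondrial superoxide dismutase, Sod2 (3542 in media and 9445 with LPS), and the cystine carrier Slc7a11 (200.3 in media and 587 with LPS) were the 2 higher of 28 redox genes, against catalase, Cat (-1.04), and Gclm (-1.10). That share of higher genes, 7.14%, is near the 6.29% over all genes. The redox list leaned lower, with 21 of the 28 below 0 and a median of -0.39, beside 5045 of all 9130 genes below 0. Of 38 proteases and inhibitors 9 were higher and 2 lower, led by tissue plasminogen activator, Plat (2.87), its inhibitor Serpinb2 (2.51), the elastase inhibitor Slpi (2.42) and the granzyme B inhibitor Serpinb9 (2.31). Genes of cell death showed 4 of 25 higher and 0 lower: the caspase-8 inhibitor Cflar (2.20), the cytosolic LPS sensor Casp4 (229 in media, 1019.8 with LPS, 176 with SEA and 956 with SEA/LPS), Casp1 (1.09) and Apaf1 (1.05).

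Several lists of growth and biosynthesis genes had medians below 0. Of 27 measured genes of ribosome biogenesis and RNA polymerase I, 7 were lower, 0 higher, and 25 below 0, with a median of -0.71. Nop2, an rRNA methyltransferase, read 155 in media, 22.5 with LPS, 156 with SEA and 26.1 with SEA/LPS, and Nolc1 108 in media, 34.3 with LPS, 64 with SEA and 39.8 with SEA/LPS. Nop56 (-1.38), Ltv1 (-1.35), Wdr12 (-1.20) and Ncl, nucleolin (-1.16), followed, although a second probe set of Ncl went the opposite way. The proteins of the finished cytosolic ribosome did not share this: 0 of 38 were past 2-fold in either direction and the median was -0.10. Mitochondrial ribosomal proteins had 5 of 45 lower and 0 higher (median -0.48), among them Mrps18b (-1.77) and Mrpl18 (-1.32).

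Amino acid supply was the list with the most lower genes, 12 of 34, against 2 higher (median -0.59). The glutamine carrier Slc1a5 read 259 in media, 19.8 with LPS, 193 with SEA and 81.7 with SEA/LPS, and Slc7a5, the large neutral amino acid carrier, 308 in media, 57.1 with LPS, 133 with SEA and 59.7 with SEA/LPS. The tRNA ligases Yars (-2.19) and Iars (-1.86) and the nutrient-stress proteins Sesn2 (-1.50) and Sesn1 (-1.46) were lower too. Slc3a2, the partner chain of Slc7a5, was 1 of the 2 higher genes (1.05). In the PI3K, AKT and mTOR list 8 of 30 were lower and 3 higher: Ddit4, an mTOR inhibitor (243 in media, 50.5 with LPS, 85.8 with SEA and 49 with SEA/LPS), Pik3r2 (at least -1.93 in size) and the translation repressor Eif4ebp1 (-1.55) on one side, and Foxo1 (1.79) and Sgk1 (1.67) on the other.

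In the list of the citric acid cycle and pyruvate entry 7 of 27 genes were lower and 0 higher, with a median of -0.71. The list as kept is wider than the cycle itself, since it also holds Idh1, Pdk1, Me2 and the iron-regulatory protein Aco1. Idh1, the cytosolic isocitrate dehydrogenase that supplies NADPH, was the lowest gene above the floor on both arrays. It read 2390.4 in media, 134 with LPS, 1901 with SEA and 446 with SEA/LPS, 17.9-fold lower with LPS than in media. Both arrays with LPS lay below both without it, and the array with LPS alone lowest. Pdk1, a kinase that holds back pyruvate dehydrogenase, read 311 in media, 52.9 with LPS, 277 with SEA and 151 with SEA/LPS, and malic enzyme Me2 (-1.77), Idh3g (-1.44), Pdha1 (-1.25) and Aco1 (-1.14) followed. Another probe set of Pdha1 was above 0. The respiratory chain shifted less, with 3 of 57 lower and a median of -0.27. In glycolysis and its side branches 4 of 30 were lower and 0 higher, the glucose carrier Slc2a1 (688 in media and 241 with LPS), Taldo1 (-1.36), the lactate carrier Slc16a3 (-1.20) and Pfkl (-1.12). Another probe set of Pfkl was above 0 (0.14).

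Lipid synthesis and breakdown were both on the lower side. Of 33 genes of cholesterol and fatty acid synthesis 9 were lower and 1 higher (median -0.48), among them the desaturase Scd2 (570.2 in media, 100.3 with LPS, 669.5 with SEA and 148 with SEA/LPS), Lpin1 (211 in media, 22.4 with LPS, 207 with SEA and 37.7 with SEA/LPS), Mvd (at least -2.23 in size), Msmo1 (-1.89), Fads1 (-1.69) and Sqle (-1.54). Of 33 genes of fatty acid oxidation and peroxisomes 7 were lower and 0 higher (median -0.33), with Acadm (-1.91), Hadh (-1.66) and Crat (-1.52) lowest. Another probe set of Crat went the opposite way (0.76). Ppargc1b, a coactivator of mitochondrial genes, read 203 in media, 18.9 with LPS, 203 with SEA and 12.9 with SEA/LPS. In the lysosomal list 5 of 46 were lower and 0 higher, led by the calcium channel Tpcn1 (401 in media, 45.6 with LPS, 289 with SEA and 65.8 with SEA/LPS) and Tfeb, the factor that drives lysosomal genes (at least -1.95 in size).

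Cell cycle genes lay on both sides. Of 56 measured, 7 were higher and 11 lower (median -0.43). On the higher side stood Ccnd2, cyclin D2 (786 in media, 6227 with LPS, 925 with SEA and 3054 with SEA/LPS), Plk2 (197 in media and 1499.7 with LPS), the cyclin-like Ccng2 (1.69) and Mxd1 (62.7 in media, 321 with LPS, 67.2 with SEA and 247 with SEA/LPS). Mxd1 competes with Myc for its partner Max, and Myc itself was lower, with 190.3 in media, 15 with LPS, 231 with SEA and 32.4 with SEA/LPS. On the lower side were genes of mitosis, Cenpa (223 in media and 46.8 with LPS), Birc5 (at least -1.66 in size), Ccna2 (-1.59), Cdk1 (-1.56), Ccnb2 (-1.44), Ube2c (-1.24) and Cdc20 (-1.12), though Pttg1 (1.39) and Mad2l1 (1.21), which also act in mitosis, were higher. Among 7 motifs searched were the letters TTTGAA of the cell cycle homology region. They stood in 21 of 48 promoter windows of the list (43.8%) against 12.0% of all measured genes. They were not particular to it, with 4 of 7 GTPase windows (57.1%) and 3 of 8 CC chemokine windows (37.5%). The antiviral, CXC chemokine, NF-kappaB and ribosome biogenesis lists had 12.5%, 10%, 0% and 8.33%. Of 42 replication and repair genes 6 were lower, Fen1 (-2.07) and Gmnn (-1.79) most, and 1 was higher, the p53 regulator Mdm2 (1.92). Nucleotide metabolism ran both ways: the salvage enzymes Dck (2.26), Upp1 (2.12) and Pnp (1598 in media and 6247 with LPS) and the dNTP-cleaving Samhd1 (1.38) were the 4 higher of 25, and the synthesis enzymes Paics (-1.56) and Ctps (-1.40) were among 5 lower.

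Several transcription factors of the resting myeloid cell were lower with LPS. Of 13 Kruppel-like factors 4 were lower and 0 higher (median -0.68): Klf2, a factor of quiescence (322 in media, 65.2 with LPS, 255 with SEA and 107 with SEA/LPS), Klf10 (216 in media, 62.7 with LPS, 134 with SEA and 139.8 with SEA/LPS), Klf13 (-1.45) and Klf4 (-1.35). For Klf10 the SEA and SEA/LPS arrays read alike and lay between the other 2. Of 32 myeloid lineage factors 6 were lower and 4 higher, with Cebpa (539.7 in media, 135 with LPS, 417 with SEA and 219 with SEA/LPS) lowest and Tcf4, the factor of plasmacytoid cells, highest (154 in media, 729.8 with LPS, 143 with SEA and 693 with SEA/LPS). Jun (896 in media, 212 with LPS, 580.1 with SEA and 412 with SEA/LPS) and Egr2 (-1.91), immediate early genes, were 2 of the 4 lower AP-1, EGR and ATF factors of 28 measured, while Batf2 (1.92) led 5 higher ones.

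Relays of G protein signalling were lower in 8 of 27 cases and higher in 2. The arrestins Arrb1 (369 in media, 58.7 with LPS, 358 with SEA and 114 with SEA/LPS) and Arrb2 (-1.68), which switch off receptors, and the kinase Grk5 (-1.51) were among the lower, and Rgs1 was higher with LPS (122 in media, 596 with LPS, 287 with SEA and 308 with SEA/LPS), with both SEA arrays in between. In the MAP kinase cascades 3 of 23 genes were higher and 3 lower. Map3k8, or Tpl2, which links TLR4 to ERK (2.13), Map2k1 (1.52) and Map3k5 (at least 1.35) were the higher ones, and Map4k1 (at least -2.98 in size), Map3k11 (at least -1.47 in size) and Map2k5 (-1.31) the lower. The activin and TGF-beta system held a pair with opposed roles. Inhba, the subunit of activin A, read 514 in media, 6431 with LPS, 361 with SEA and 5170.2 with SEA/LPS, and Fst, follistatin, which binds and blocks activin, 310.5 in media, 4443 with LPS, 329 with SEA and 4179 with SEA/LPS. Both were high on both arrays with LPS. The TGF-beta receptors Tgfbr1 (-1.37) and Tgfbr2 (-1.18), the matrix protein Tgfbi (-1.77) and the repressor Ski (284 in media, 37.9 with LPS, 201 with SEA and 48 with SEA/LPS) were lower. Nppc, the C-type natriuretic peptide, a gene outside these pathways, was 17.2-fold higher (34.5 in media, 593 with LPS, 36.8 with SEA and 146 with SEA/LPS).

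Outside the lists, the genes with the most negative differences measured on both sides, after Idh1, were Gtf2i, a general transcription factor (574 in media, 61.3 with LPS, 383 with SEA and 84.3 with SEA/LPS), Olfm1 (799 in media, 107 with LPS, 613 with SEA and 320.5 with SEA/LPS) and Rusc1 (455 in media, 65.5 with LPS, 600.3 with SEA and 568 with SEA/LPS). Gtf2i was low on both arrays with LPS, Rusc1 on the LPS array alone. The growth factor gene Pdgfb (-2.32), the protease subunit Clpp (-2.45) and the adaptor Dok2 (-2.34) also belonged to the 30 lowest. Bright transcripts common to most cells differed little, with Actb at 8994 in media, 13634 with LPS, 9481 with SEA and 9750.3 with SEA/LPS, Fth1, the ferritin heavy chain, at 10261 in media and 13850 with LPS, and Psap at 11819 in media and 10172 with LPS.

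The arrays labelled SEA and SEA/LPS also differ by LPS and share no array with the pair described so far. They are no replicate, since SEA was present on both. Of the 8920 genes measured in that pair, 442 were 2-fold or more higher (4.96%) and 604 lower (6.77%). Among the 574 genes higher in LPS over media, 317 were 2-fold or more higher there too (55.2%), 496 had the same sign and 7 were 2-fold or more lower. The median difference of the 574 was 1.51 in LPS over media and 1.12 in SEA/LPS over SEA. In the reverse direction, the 317 were 72.2% of 439 genes higher in SEA/LPS over SEA and also measured in LPS over media. Of the larger differences, 145 of 157 genes 4-fold or more higher (92.4%) and 59 of 62 genes 8-fold or more higher were past 2-fold in the second pair. On the lower side 258 of 799 were past 2-fold there (32.3%), 749 had the same sign and 0 were 2-fold or more higher, with medians of -1.29 and -0.75. The 258 were 43% of 600 genes lower in SEA/LPS over SEA and also measured in LPS over media. Of the 71 genes 4-fold or more lower 48 were past 2-fold (67.6%). The 2-fold differences of the first pair were read without the second, but the floor and the probe set of each gene were set on all 4 arrays.

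Over 7142 genes above the floor on all 4 arrays the differences of the 2 pairs had a Pearson correlation of 0.70, a description only, as genes do not vary independently. Taken by list, with bounds at their floored value, the GTPases had medians of 2.81 in LPS over media and 2.84 in SEA/LPS over SEA, the ISG15 pathway 2.14 and 2.27, and the antiviral effectors 2.39 and 2.02. The CXC chemokines had 1.25 and 0.75, the CC chemokines 1.01 and 0.33, and the IL-1 family 1.45 and 0.79. The STAT factors had 1.34 and 0.29 and the IL-6 and IL-12 families 0.56 and -0.06. Below 0 in the first pair, ribosome biogenesis had -0.71 and -0.69 and cholesterol and fatty acid synthesis -0.48 and -0.65. Amino acid supply had -0.59 and -0.47 and the citric acid cycle list -0.71 and -0.40. The Kruppel-like factors had -0.68 and -0.08 and the C-type lectins -0.51 and -0.03. Single genes of the interferon, cytokine and chemokine groups went both ways. Ifit1 differed by 5.66 and 5.47 and Ifit3 by 4.87 and 5.04, whereas Cmpk2 differed by 6.38 and 5.32, Ifih1 by 4.82 and 3.74 and Irf7 by 3.75 and 2.55. Cxcl10 differed by 5.26 and 5.13 and Il1a by 4.03 and 3.78, whereas Il6 differed by 6.99 and 4.41, Cxcl1 by 5.86 and 3.51, and Il1b by 4.34 and 2.55. Il6, Cxcl1 and Il1b had higher signals with SEA than in media, and lower ones with SEA/LPS than with LPS. Several genes differed in LPS over media with little or no difference in the second pair, namely Stat2 (3.26 and 0.29), Rgs1 (2.29 and 0.10), Ebi3 (1.76 and -0.06), Nfkb2 (1.62 and 0.16) and, on the lower side, Rusc1 (-2.80 and -0.08) and Csf2rb (-1.19 and 0.03). Whether SEA or the spread between arrays accounts for such gaps was not tested, since each group is 1 array.

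**Figure D4:**
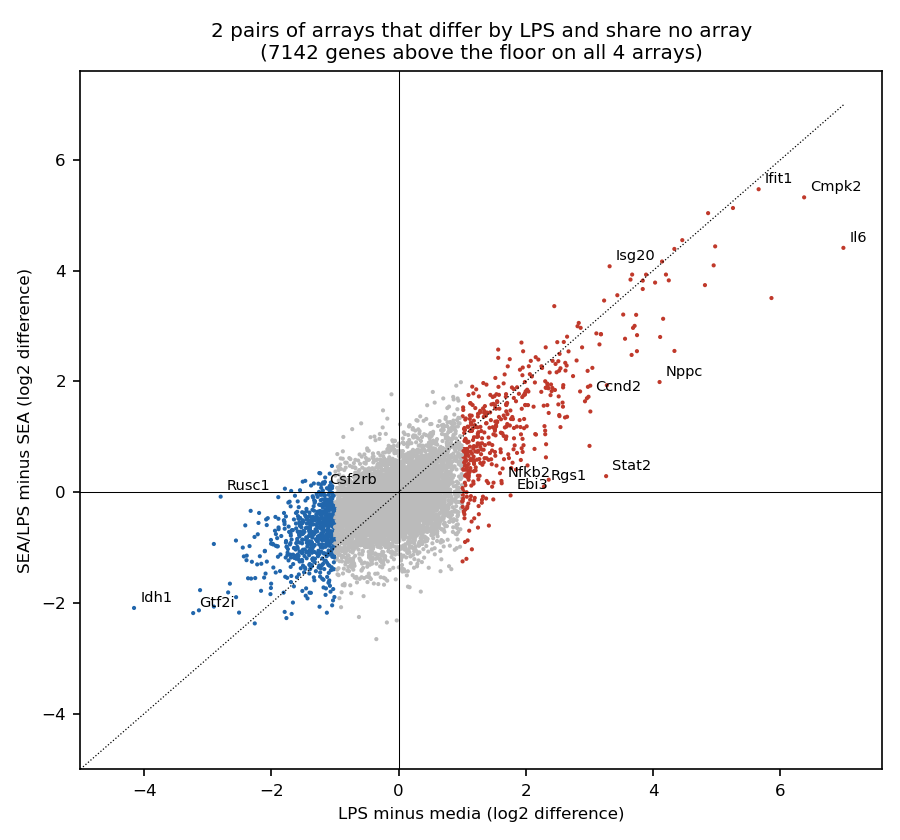
Log2 difference LPS minus media (x axis) against SEA/LPS minus SEA (y axis) for 7142 genes above the floor on all 4 arrays; red and blue mark genes 2-fold or more higher and lower in LPS over media, and the dotted line marks equal differences. Points far from 0 lie near the line but mostly closer to 0 on the y axis, and Stat2, Rgs1, Ebi3, Nfkb2, Rusc1 and Csf2rb lie near 0 on it.

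A gauge of the error within these 2 arrays came from genes with several probe sets. Over 2472 genes with 2 or more probe sets above the floor on both arrays, the SD of the difference between probe sets of a gene was 0.45 on the log2 scale. The remaining probe sets of a gene gave the same direction for 193 of 209 higher genes (92.3%) and 246 of 288 lower genes (85.4%), and a 2-fold difference of their own for 122 and 94. For genes within 2-fold, 55.4% of other probe sets lay below 0. This spread includes cross-hybridisation, alternative transcripts and spot noise. It holds nothing of the variation between cultures or mice, on which these arrays are silent. At the entry limit, members just inside included Ttll3 (29.8 in media and 33.4 with LPS) and Cspp1 (33.4 in media and 7.7 with LPS), and just outside lay Vip (24.6 in media and 33.3 with LPS) and Cttn (33.3 and 13.3).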

How the data were processed

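Total RNA of 4 samples, 1 array each, was measured on a 1-colour Affymetrix mouse array. The values are a deposited table of intensity values for 22690 probe sets; judged from the values, the authors scaled each column to a 2% trimmed mean of 150.1. The software and background correction behind them are not stated by the labels, and scanner files were not used here. A common mean hides any difference in total RNA content.

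Probe sets were named through the platform annotation. Of 22690, 64 were controls, 20380 had 1 symbol, 691 several and 1555 none, and 20351 matched RefSeq gene records (GRCm38.p6, used for names, order and promoter windows). Deposited intensities were not rescaled. Readings at or under 33.3 were set to 33.3 before log2 was taken. A gene was read from the probe set with the highest mean log2 over the 4 arrays. Python 3.11.15, numpy 2.4.6 and pandas 2.3.3 were used, and the calls were tested on simulated data. With 1 array per group there was no test, and precision is limited by the number of arrays.

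The members and the 85 gene lists (2272 symbols) were chosen with earlier results of these data known. Genes were named by rule: Il10; among genes measured on both sides, the 30 most positive and the 30 most negative differences; 15 bounds per direction, taken by brightness; the 10 brightest genes of each array; and from every list the 6 largest differences of 2-fold or more, or fewer where fewer passed. Markers, genes at the entry limit and genes in runs follow their own rules. Igtp, Gbp2, Gbp3, Gbp7, Mx2, Mavs, Slc3a2, Itgb5, Birc5, Ccna2, Cdk1, Ccnb2, Ube2c, Cdc20, Pttg1 and Mad2l1 were chosen after their values were seen, and the printed promoters after their matches were. Alternatives were 3 scalings, 2 other floors, a pseudocount, other probe set rules and a 3-fold threshold.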

Additional observations from a re-analysis of the deposited data

Results flagged for a closer look

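In 2 of the genes named by rule the difference in LPS over media was opposite in sign to that in SEA/LPS over SEA by more than the spread between probe sets of a gene. Fasl, the ligand of the death receptor FAS, was at least 1.15 higher on the log2 scale with LPS than in media and lower with SEA/LPS than with SEA, by at least -0.69 in size. Efnb1, an ephrin ligand, differed by 1.11 and -0.70. Each of these values comes from 1 array a side, so the difference between them was not tested. Another probe set of Efnb1 gave -0.14 in LPS over media.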

How the results depend on the processing

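The counts moved most with scale, floor and threshold. Against 907 probe sets 2-fold or more higher and 1195 lower, scaling to the hybridisation controls gave 431 and 3536, the floor at the 20th percentile (9.8) gave 1848 and 2173, that at the 60th percentile (75.4) left 679 lower, and a 3-fold threshold gave 388 and 279. Against 574 genes higher and 799 lower, the same settings gave 284 and 2413, 1083 and 1300, 468 lower, and 260 and 190. All other settings kept both counts within 1.5 times, with 725 and 583 genes after scaling to the 75th percentile. Of 385 genes named by rule for a 2-fold difference, 362 stayed past 2-fold the same way after that scaling, 375 after quantile normalization, 328 on the hybridisation controls, 326 with 32 added to the signal and no floor, 337 with the mean of a gene's probe sets, 330 of 381 with the higher floor and 363 of 373 without probe sets that match several transcripts. Sign changed for Ncl (0.025, mean of probe sets) and, without those probe sets, Ptpn6 (-0.81), Ndufs8 (0.024) and Kif3b (0.092). Scaling to the hybridisation controls moved list medians by -0.55, so that 27 of the 44 above 0 fell below it, the largest being that of the ubiquitin regulators of NF-kappaB (0.53, then -0.017), and scaling to the 75th percentile turned 11 of the 41 below 0 positive, the lowest of them -0.14. Among list medians of 0.5 or more in size, that of the ubiquitin regulators was the only one to change sign under any of these settings. No paired analysis was possible because each group has 1 array.

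Dim genes are the least certain: a reading under the floor gives a bound only, and the floor itself sets how large that bound is. A gene within 2-fold is not shown to be unchanged.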

Other observations

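Of the genes past 2-fold in both pairs of arrays, 7 went in opposite directions, higher in LPS over media and lower in SEA/LPS over SEA: D8Ertd738e (1.07 and -1.20), Gckr (at least 1.19 and -1.27), Msgn1 (1.15 and -1.03), Rcor2 (at least 1.32 and at least -1.30 in size), Rrp7a (1.01 and -1.25), Rtbdn (1.18 and at least -1.53 in size) and Wrn (1.09 and at least -1.53 in size). All 7 had a higher signal with SEA than in media and a lower one with SEA/LPS than with LPS. Picking genes by opposite 2-fold differences largely sets this pattern in advance, so it adds nothing separate. Msgn1 is a factor of the early embryonic mesoderm and Gckr a regulator of glucokinase in liver.

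Among the 385 genes named by rule for a 2-fold difference, 161 had another probe set above the floor on at least 1 of the 2 arrays, and in 150 of these the others went the same way on average. In the other 11 they did not: Ptpn6, Pdia4, Ncl, Pdha1, Pfkl, Mlst8, Tubb4b, Snrpd3, Mmp19, Efnb1 and Crat.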
